A study of Drosophila melanogaster with 6 samples.

Results

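The 10 genes of the Hippo pathway described here were followed through sorted stem and progenitor cells of the adult Drosophila midgut. They were chosen by gene symbol, with earlier results of these data known but no measured value used in the rule. They are 10 of the 15603 genes listed: yorkie (yki), hippo (hpo), warts (wts), salvador (sav), mats, expanded (ex), Merlin (Mer), kibra, fat (ft) and dachsous (ds). Of these, 9 were above 0 in at least 1 library, and 8 averaged at least 1 FPKM (fragments per kilobase of transcript, scaled to the mapped fragments of the library) over the 6 libraries. Each of the 10 symbols matched 1 gene.

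RNA was sequenced from GFP-positive cells sorted from guts of 7-day-old females in 6 conditions, with 1 library per condition from a pool of about 100 guts. The cells carried the temperature-sensitive escargot driver (esgGal4ts), which is active in intestinal stem cells (ISCs) and in their daughters, the enteroblasts (EBs), so that a library holds a mixture of both. In 4 conditions the flies spent 2 days at 29 °C, with the driver alone in the w1118 background, with HttQ138, a huntingtin with an expanded polyglutamine tract that aggregates, with CncCRNAi, directed against the Nrf2 homologue CncC, or with CncCRNAi and HttQ138 together. In the other 2 the flies spent 4 days at 29 °C, with the driver in the attP2 background or with Rpn3RNAi, directed against a proteasome lid subunit. HttQ138 was set against w1118, CncCRNAi+HttQ138 against CncCRNAi, and Rpn3RNAi against attP2. The first member of each pair is called stressed here and the second its control. With 1 library per condition no difference has a replicate check and no p-value is given.

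The Hippo pathway limits tissue growth. The kinase Hippo with its partner Salvador activates the kinase Warts with its partner Mats, and Warts phosphorylates the coactivator Yorkie and holds it in the cytoplasm. When Warts is inactive, Yorkie enters the nucleus and, with the DNA-binding protein Scalloped, switches on genes for growth and survival. Expanded, Merlin and Kibra are scaffolds at the apical cell cortex that bring the kinases together, and the giant cadherins Fat and Dachsous feed into Warts from cell contacts. In the fly midgut, Yorkie is needed for the proliferation of ISCs after damage, and its activity is set largely by phosphorylation, which levels of RNA do not measure.

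The depth recovered from the steps of the low FPKM values lay between 2780000 and 3640000 fragments per library, and the 8 members that averaged at least 1 FPKM had an estimated 76 to 864 fragments each. Unless said otherwise, an interval in parentheses is an exact binomial 95% interval on those fragments. It covers counting error only, not the difference between separate pools of flies. The sorting label was checked against esg, which stood between 287 and 346 FPKM, while Dl, the Notch ligand that marks ISCs, lay between 0.803 and 2.34 FPKM. The RNAi labels were checked against their targets. The transcript of cnc was not lower under its label: w1118 had 63.8 FPKM, the library labelled CncCRNAi 64.4 and that labelled CncCRNAi+HttQ138 75.6. Rpn3 was 77.1 FPKM in attP2 and 63.2 in Rpn3RNAi, a ratio of 0.820 (0.704 to 0.954), but it was lower still in w1118, CncCRNAi and CncCRNAi+HttQ138, at 45.5, 37.7 and 33.1, and 71.0 in HttQ138.

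In the 3 control libraries, the members ran from kibra, with a median of 48.6 FPKM, through yki at 44.3, Mer at 31.4, ex at 28.6, mats at 26.6, hpo at 19.4, wts at 15.9 and sav at 14.7 down to ft at 0.261 FPKM. The ranges of kibra and yki overlapped in these controls, as did those of ex and mats and those of wts and sav, so that these neighbours did not differ beyond their spread, and hpo and wts were barely apart, with 16.3 the lowest hpo and 16.0 the highest wts. The effector and one of the upstream scaffolds thus had the highest levels per length, and both kinases were lower. In the stressed libraries kibra moved from the top of this order to the third place, with a median of 31.0 FPKM, behind yki at 39.6 and Mer at 35.8. There mats was close to kibra, with a median of 30.3 FPKM. The ranges of kibra (25.6 to 34.2) and mats (29.1 to 30.8) overlapped, as did those of yki and Mer.

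**Figure D1:**
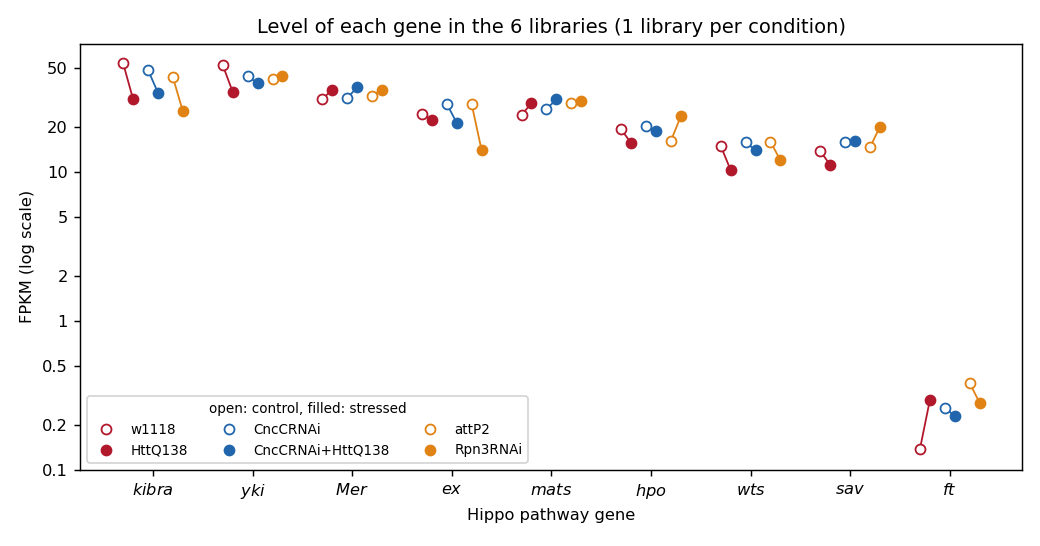
FPKM of the 9 detected Hippo pathway genes, on a log axis, in each of the 6 libraries. Open points are controls, filled points the stressed library joined to its own control by a line, and colours mark the 3 pairs; kibra lies below its control in every pair and ft stays under 1 FPKM throughout.

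The level of kibra was lower in all 3 stressed libraries. The gene (FBgn0262127, arm 3R) encodes a WW-domain scaffold that acts with Expanded and Merlin upstream of Hippo. It stood at 53.9 FPKM in w1118, 48.6 in CncCRNAi and 43.3 in attP2, and at 31.0 in HttQ138, 34.2 in CncCRNAi+HttQ138 and 25.6 in Rpn3RNAi. The highest stressed value was thus below the lowest control. Relative to its own control, kibra was 0.574 (0.514 to 0.641) with HttQ138, 0.704 (0.635 to 0.780) with HttQ138 in the CncCRNAi background, and 0.591 (0.521 to 0.670) with Rpn3RNAi. The controls also differed from each other, with CncCRNAi at 0.90 (0.818 to 0.990) and attP2 at 0.803 (0.728 to 0.885) of w1118, which is a smaller difference than that in any of the 3 comparisons. In libraries of bulk cells, fewer cells that express a gene and less RNA per cell cannot be told apart.

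The level of ex (FBgn0004583, arm 2L), which encodes a FERM-domain scaffold and is itself a transcriptional target of Yorkie, was 24.8 FPKM in w1118, 28.8 in CncCRNAi and 28.6 in attP2. It was 22.4 in HttQ138, 21.4 in CncCRNAi+HttQ138 and 14.0 in Rpn3RNAi, again with no overlap between stressed and control libraries. The gap was narrow for HttQ138, where the ratio was 0.904 with an interval of 0.794 to 1.03, and wider for HttQ138 on CncCRNAi at 0.745 (0.661 to 0.839). It was widest with Rpn3RNAi, at 0.490 (0.421 to 0.567), the lowest ratio of any member in these 3 comparisons. In the release 6 annotation, 448 nucleotides of its exons overlap those of crq on the other strand, and crq stood between 111 and 170 FPKM. A strand-specific kit is not named in the sources used here.

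Mer (FBgn0086384, chromosome X), the homologue of the human tumour suppressor NF2, was the steadiest member. It stood at 31.1 FPKM in w1118, 31.4 in CncCRNAi and 32.8 in attP2, and at 35.8 in HttQ138, 37.3 in CncCRNAi+HttQ138 and 35.8 in Rpn3RNAi. All 3 stressed values were above all 3 controls, but the steps were small, with ratios of 1.15 (0.976 to 1.36), 1.19 (1.02 to 1.39) and 1.09 (0.927 to 1.28). The separation was lost when each library was rescaled to an equal sum of FPKM. The 3 apical scaffolds therefore did not move together: kibra and ex were below their controls and Mer was slightly above.

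**Figure D2:**
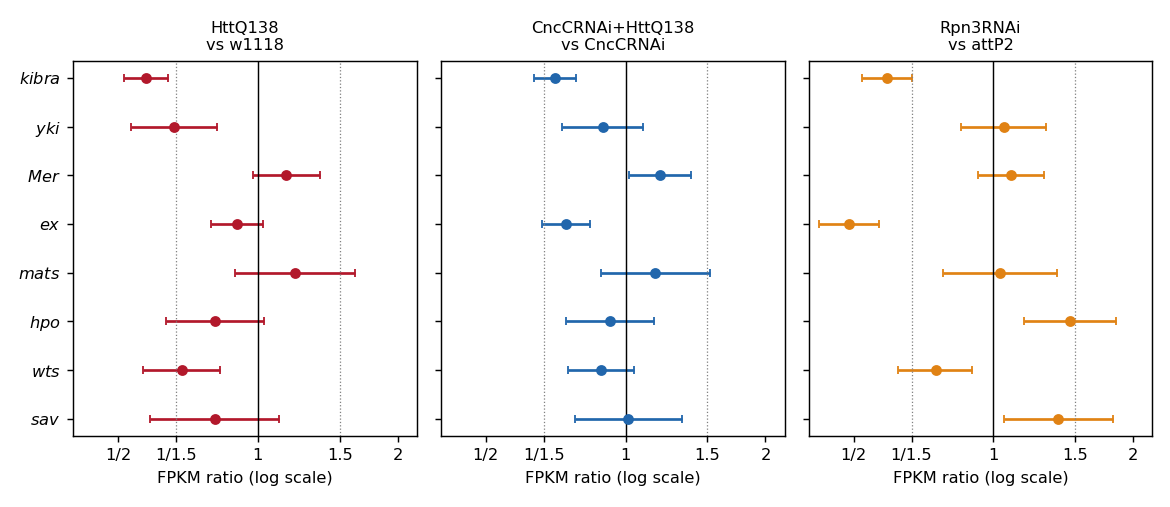
Ratio of FPKM in the stressed library to that in its own control for the 8 members that averaged at least 1 FPKM, on a log axis, one panel per comparison. Bars are exact binomial 95% intervals that cover counting error only, the solid line marks a ratio of 1 and dotted lines 1.5-fold; kibra lies left of 1 with its whole interval in all 3 panels.

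Ratios between members of the same library do not depend on how libraries are scaled to each other. The pairs described here were chosen after their values were seen. The FPKM of kibra was 1.74 times that of Mer in w1118, 1.55 times in CncCRNAi and 1.32 times in attP2. In the stressed libraries it was 0.866 times in HttQ138, 0.916 in CncCRNAi+HttQ138 and 0.716 in Rpn3RNAi, so that Mer was above kibra there and below it in every control. The ratio of ex to Mer was 0.797 to 0.916 in the controls and 0.391 to 0.626 in the stressed libraries. The ratio of wts to mats, a kinase and its own activating subunit, was 0.547 to 0.621 in the controls and 0.355 to 0.456 in the stressed libraries. By contrast, the ratio of yki to wts did not separate them, at 2.62 to 3.49 in the controls and 2.81 to 3.67 in the stressed libraries. Of the 28 pairs among the 8 members, 12 separated the stressed libraries from the controls, 5 of them with kibra and 4 with Mer. The pairs of wts with hpo, sav, mats and Mer were also among the 12. Of all pairs of genes with means of 10 to 60 FPKM, 12.2% separated the stressed libraries from the controls, and pairs that share a gene are not independent.

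**Figure D3:**
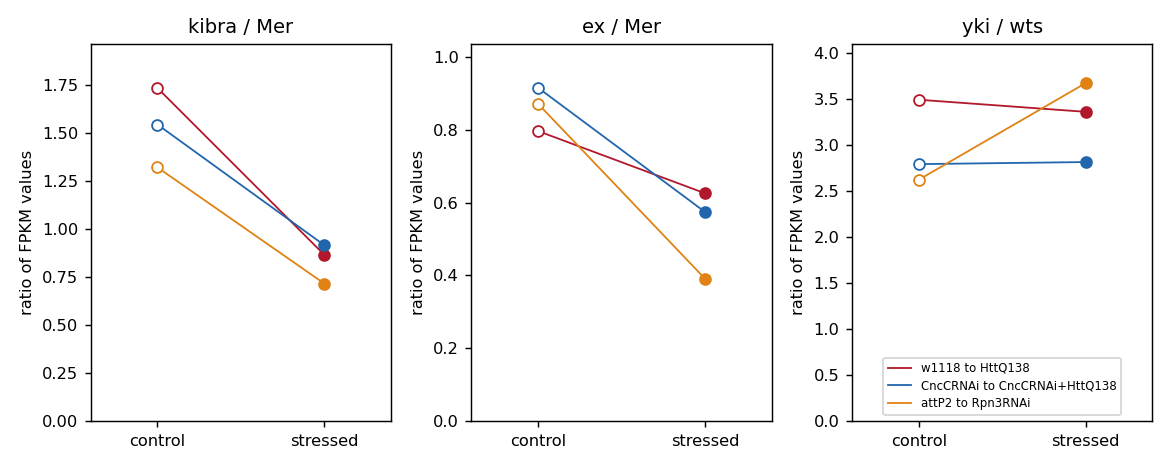
Ratio of the FPKM of kibra to Mer, ex to Mer and yki to wts within each library, linear axes from 0, with open points for controls, filled points for stressed libraries and a line for each of the 3 pairs. The first ratio passes from above 1 in all controls to below 1 in all stressed libraries, and the last has no common direction.

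The effector itself was lower in HttQ138 than in w1118. The FPKM of yki (FBgn0034970, arm 2R) went from 52.5 in w1118 to 34.7 in HttQ138, from 44.3 in CncCRNAi to 39.6 with HttQ138 added, and from 42.0 in attP2 up to 44.1 in Rpn3RNAi. Its ratio was 0.661 (0.533 to 0.817) with HttQ138, 0.893 (0.729 to 1.09) with HttQ138 on CncCRNAi and 1.05 (0.850 to 1.30) with Rpn3RNAi. The w1118 library had the highest yki of the 6, and attP2 was 0.800 (0.656 to 0.974) of w1118, a difference between controls in the same direction as that with HttQ138. Set against attP2, yki in HttQ138 was lower by less than 1.5-fold.

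Of the kinases, wts was below its controls under stress and hpo had no common direction. The gene wts (FBgn0011739, arm 3R), the kinase that phosphorylates Yorkie, stood at 15.0 FPKM in w1118, 15.9 in CncCRNAi and 16.0 in attP2, and at 10.3 in HttQ138, 14.1 in CncCRNAi+HttQ138 and 12.0 in Rpn3RNAi. The ratios were 0.687 (0.567 to 0.831), 0.885 (0.752 to 1.04) and 0.751 (0.624 to 0.901), and the stressed values were below all controls. The level of hpo (FBgn0261456, arm 2R), the upstream kinase, was 19.4, 20.4 and 16.3 FPKM in w1118, CncCRNAi and attP2 and 15.7, 18.9 and 23.8 in the matching stressed libraries. Its groups overlapped, with ratios of 0.810 (0.635 to 1.03), 0.926 (0.746 to 1.15) and 1.46 (1.16 to 1.84), and its highest and lowest values of the 6 were both in stressed libraries. The exons of hpo share 130 nucleotides with Rep on the other strand, which stood between 15.9 and 35.2 FPKM.

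The adaptors were closer to their controls, apart from sav with Rpn3RNAi. The gene sav (FBgn0053193, arm 3R), the scaffold that joins Hippo to Warts, stood at 13.8, 15.9 and 14.7 FPKM in w1118, CncCRNAi and attP2 and at 11.2, 16.1 and 20.3 in HttQ138, CncCRNAi+HttQ138 and Rpn3RNAi. Its ratios were 0.808 (0.587 to 1.11), 1.01 (0.778 to 1.32) and 1.38 (1.05 to 1.81). Beside the last, Ctns, which shares 73 nucleotides of exon with sav on the same strand, went from 6.60 FPKM in attP2 to 19.9 in Rpn3RNAi, and its part in the value of sav was not tested. mats (FBgn0038965, arm 3R), the activating subunit of Warts, stood at 24.2, 26.6 and 29.3 FPKM in the controls and 29.1, 30.8 and 30.3 in the stressed libraries in the same order. It was higher in each pair, but all 3 intervals held 1, with ratios of 1.20 (0.891 to 1.62), 1.16 (0.884 to 1.52) and 1.04 (0.779 to 1.37).

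The cadherins had very few fragments or none. ft (FBgn0001075, arm 2L) had 0.137 FPKM in w1118 against 0.292 in HttQ138, 0.261 in CncCRNAi against 0.229 in CncCRNAi+HttQ138, and 0.382 in attP2 against 0.281 in Rpn3RNAi. These values are about 7, 16, 15, 14, 23 and 13 fragments, in the same order, over a transcript of 16852 nucleotides, and the ratio of 2.14 with HttQ138 has an interval of 0.833 to 6.13. On CncCRNAi the ratio was 0.877 (0.392 to 1.95), and with Rpn3RNAi 0.737 (0.343 to 1.52). The gene ds (FBgn0000497, arm 2L), which encodes the ligand of Fat, is listed at 0 in all 6 libraries. Mitochondrially encoded genes, which every cell uses, are listed at 0 too, and no ratio is given for ds.

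Members past a fold limit were counted, to be read against the share of all genes. With 10 members these counts are a description and are not set apart from the shares. With HttQ138, 2 of the 10 members were at least 1.5-fold lower than in w1118, yki and kibra, where 18.0% of the 8155 genes tested were as low, and 1 was higher, ft, where 17.0% were. The genes tested averaged at least 1 FPKM in the libraries compared, a limit that ft and ds did not reach, so that neither is part of the 1.5-fold shares. On CncCRNAi, 0 members were lower and 0 higher by this measure, where 18.0% of 8229 genes were lower and 8.43% higher. With Rpn3RNAi, 2 were lower, ex and kibra, and 0 higher, where 17.2% of 8344 genes were lower and 21.0% higher. By the stricter limit of 3-fold with 10 FPKM in the higher library, 0 members passed in any of the 3 comparisons, where 5.30%, 2.54% and 8.80% of genes did.

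Between controls, 1 of the 10 members, ft, was at least 1.5-fold higher, with a ratio of 1.91 (0.734 to 5.52) in CncCRNAi and 2.79 (1.16 to 7.69) in attP2 relative to w1118, and 0 were lower, where 24.1% of genes were higher and 10.5% lower in CncCRNAi than in w1118 and 18.9% were higher and 12.9% lower in attP2. These shares too are of genes that averaged at least 1 FPKM, which ft did not. The median log2 ratio over the 9 detected members, on the scale of FPKM + 1, was -0.28 with HttQ138 against -0.07 over all genes tested. It was -0.11 against -0.14 on CncCRNAi and 0.05 against -0.03 with Rpn3RNAi. The highest value of a member over its lowest in the 6 libraries was 1.20 for Mer, 1.27 for mats, 1.51 for yki and for hpo, 1.55 for wts, 1.81 for sav, 2.06 for ex and 2.11 for kibra. Over the 4031 genes with means of 10 to 60 FPKM the median of this measure was 1.78, so that 5 of the 8 members varied less than the middle gene of their own range of levels.

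The levels of wts, ex and kibra were below all controls in all stressed libraries, 3 of the 8 that averaged at least 1 FPKM, where 10.4% of 8380 genes were. Only Mer was above all controls, where 3.37% of genes were. It follows that wts, ex and kibra were lower than their own controls in all 3 comparisons, a pattern shown by 22.9% of genes, and Mer higher in all 3. The level of mats was higher in all 3 as well, a pattern shown by 9.77% of genes. With 8 genes these shares are a description and are not set apart from the background. For wts, ex and kibra the separation stayed under both rescalings of the libraries, and in the 3 comparisons no member changed direction under either. Without the Rpn3RNAi and attP2 pair, 5 members were below all remaining controls and 2 above, and without the HttQ138 and w1118 pair 3 were below and 3 above. Fewer libraries separate more easily, and the share of all genes was not computed for these smaller sets. The shares above do not apply to them. Rescaling to an equal sum or by the median ratio moved the median of all genes by 0.12 and 0.16 on the log2 scale in the Rpn3RNAi comparison, and there hpo and sav then passed 1.5-fold.

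The ratio with HttQ138 was compared between the w1118 and the CncCRNAi background. The ratio with CncCRNAi divided by that with w1118 was 1.35 (1.01 to 1.80) for yki, 1.29 (1.01 to 1.65) for wts and 1.23 (1.06 to 1.42) for kibra, each being nearer to its control on CncCRNAi. For ex it was 0.824 (0.693 to 0.979), the opposite order. The other 5 intervals held 1. These are approximate 95% intervals for counting error, not tests of the conditions. The share of all genes with such an interval was not computed, so the named members are not set apart from the background. The w1118 control had the highest yki and kibra of the 6 libraries.

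Markers of other cell types moved with some of these comparisons. The summed FPKM of 14 enterocyte markers, all above 0 in every library, was 808 in w1118 and 2902 in HttQ138, and 874 in attP2 and 13393 in Rpn3RNAi, with 12 of 14 and 10 of 14 at least 1.5-fold higher. In Rpn3RNAi alphaTry alone had 3867 FPKM of this sum. Counted at any size, 11 were higher with Rpn3RNAi and 3 lower, Tsp2A, Ssk and Myo31DF, at 0.733, 0.771 and 0.741 of attP2. Between CncCRNAi and CncCRNAi+HttQ138 the sum was 1153 and 1179, with 2 higher and 2 lower, and in this pair kibra was 0.704 and ex 0.745 of their control. Of 8 markers of ISCs and EBs, whose sums lay between 610 and 755, 4 were at least 1.5-fold lower with HttQ138 and 0 higher. On CncCRNAi 3 were lower and 0 higher. With Rpn3RNAi, where kibra was 0.591 of its control, 0 were lower and 1 higher, Dl, at 1.58 (0.885 to 2.86). Counted at any size, 3 were higher and 5 lower with HttQ138, 2 and 6 on CncCRNAi, and 5 and 3 with Rpn3RNAi. The 3 higher with HttQ138 were Sox21a at 1.31 (1.18 to 1.44), hdc at 1.26 (1.11 to 1.42) and Dl at 1.22 (0.622 to 2.45). Of the 8, mira, a marker of ISCs, stood at 42.1 FPKM in HttQ138 against 126 in w1118. It was 28.9 against 93.2 on CncCRNAi, and 92.2 against 66.8 with Rpn3RNAi. The sum of 10 enteroendocrine markers went from 511 to 369, from 261 to 99.2 and from 150 to 266 in the same order. NPF alone was 396 FPKM of this sum in w1118 and 167 in HttQ138. Of the 9 enteroendocrine markers that averaged at least 1 FPKM with HttQ138, 6 were at least 1.5-fold higher and 2 lower. On CncCRNAi 1 of 7 was higher and 4 lower, and with Rpn3RNAi 8 of 9 were higher and 0 lower. The summed FPKM of 9 visceral muscle markers went from 5.05 to 16.4, from 4.77 to 3.57 and from 7.86 to 21.5. That of 5 hemocyte markers lay between 3.26 and 10.3. Their part in the levels of the Hippo genes was not tested.

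The other genes of the pathway were taken from 5 lists chosen by role, and only genes that averaged at least 1 FPKM in a comparison were counted. Of the 7 genes of the Fat branch, 3 were counted in each comparison (dco, app and Zyx) and 0 differed by 1.5-fold. Of 13 junction and kinase inputs, 12 were counted, and 1 was higher and 3 lower with HttQ138, 0 higher and 1 lower on CncCRNAi, and 1 higher and 1 lower with Rpn3RNAi. Over all genes tested, 17.0% were higher and 18.0% lower with HttQ138, 8.43% and 18.0% on CncCRNAi, and 21.0% and 17.2% with Rpn3RNAi. The counts of all 5 lists are to be read against these shares. The median log2 ratios of the junction and kinase inputs were -0.32, -0.14 and 0.01.

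The inputs past 1.5-fold included adhesion and polarity genes. Echinoid (ed), a cell adhesion molecule that stabilises Salvador at the membrane, was 21.7 FPKM in w1118 and 8.28 in HttQ138, and 15.3 and 9.39 in the CncCRNAi pair, ratios of 0.381 (0.310 to 0.468) and 0.612 (0.501 to 0.745). It was also low in attP2, at 9.78 FPKM, and in Rpn3RNAi, at 9.85. aPKC, an apical polarity kinase, was 61.6 FPKM in w1118 and 39.3 in HttQ138, but 20.5 in attP2 and 61.1 in Rpn3RNAi, a ratio of 2.98 (2.52 to 3.52). The attP2 control thus had the lowest aPKC of the 4 libraries named. Magi, a junctional scaffold, was 13.2 against 21.2 FPKM with HttQ138 and 18.5 against 9.60 with Rpn3RNAi, opposite directions in these 2 comparisons. Schip1 (listed as CG5375), a scaffold for the kinase Tao, was 0.287 FPKM against 1.52 on CncCRNAi, and was not among the genes counted there because it averaged under 1 FPKM.

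Antagonists of Hippo and nuclear partners of Yorkie were counted in the same way, to be read against the shares of all genes given above. Of 9 antagonists, which include the STRIPAK phosphatase complex, 1 was higher and 2 lower with HttQ138, 0 higher and 1 lower on CncCRNAi, and 0 with Rpn3RNAi, with medians of -0.29, 0.04 and -0.23. Cka, a STRIPAK scaffold, was 40.3 FPKM in w1118 and 25.9 in HttQ138. Slmap (listed as CG17494), which tethers STRIPAK to Hippo, was 26.3 and 17.4 FPKM in the same libraries and 26.5 and 16.6 in the CncCRNAi pair, ratios of 0.663 (0.541 to 0.812) and 0.625 (0.514 to 0.758). Of 8 nuclear partners of Yorkie, 6, 7 and 6 were counted, and the only 2 past 1.5-fold were lower on CncCRNAi, Tgi (listed as CG10741), a repressor that competes for Scalloped, at 45.7 against 27.5 FPKM, and tsh at 2.16 against 0.776. In both cases the CncCRNAi control had the highest level of the 6 libraries, with 23.6 to 33.5 FPKM of Tgi and 0.142 to 0.709 FPKM of tsh in the other pairs. Scalloped (sd) itself stayed between 61.8 and 72.6 FPKM.

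Genes reported as Yorkie targets in flies did not share a direction with HttQ138. Of 14, 8, 9 and 9 were counted, and 2 were higher and 2 lower with HttQ138, 1 higher and 3 lower on CncCRNAi and 0 higher and 3 lower with Rpn3RNAi, with medians of -0.18, -0.04 and -0.25. Counted at any size, 8 of the 9 were lower with Rpn3RNAi, and 4 were higher and 4 lower with HttQ138. The share of all genes lower at any size was not computed, so the 8 are not set apart from the background. With Rpn3RNAi the median log2 ratio of all genes tested was -0.03. Diap1 (listed as th), the classic survival target, stayed between 138 and 194 FPKM, and the bantam gene is listed at 0 in all 6 libraries. The EGF receptor ligand vein (vn) stood apart. It was 5.47 FPKM in w1118 and 27.3 in HttQ138, 4.70 in CncCRNAi and 34.1 in CncCRNAi+HttQ138, ratios of 4.99 (3.89 to 6.48) and 7.25 (5.66 to 9.41), and 14.3 in attP2 and 13.7 in Rpn3RNAi, a ratio of 0.959 (0.781 to 1.18). The attP2 control was thus itself 2.62 (2.01 to 3.45) times w1118.

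The cytokine genes upd2 and upd3, both ligands of the JAK/STAT pathway and both under the control of several stress pathways in the gut, differed widely between controls. The level of upd3 was 16.8 FPKM in w1118 and 33.0 in HttQ138, with 111 in CncCRNAi and 73.5 in CncCRNAi+HttQ138, and 51.3 in attP2 and 31.6 in Rpn3RNAi. The level of upd2 was 8.68 against 4.78 and 69.2 against 21.0 FPKM in the first 2 pairs, and 17.5 against 14.6 in the third. Between the controls CncCRNAi and w1118, 5 of 9 counted targets were at least 1.5-fold higher and 0 lower, where 24.1% of all genes were higher and 10.5% lower. The controls themselves thus differed, and not in these targets alone. Myc (listed as dm), a growth regulator, went from 65.0 to 38.9 FPKM with HttQ138, from 102 to 68.5 on CncCRNAi and from 52.3 to 52.9 with Rpn3RNAi. Krn, an EGF receptor ligand, went from 17.2 to 21.4 FPKM with HttQ138, from 33.2 to 39.6 on CncCRNAi and from 21.0 to 13.5 with Rpn3RNAi.

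**Figure D4:**
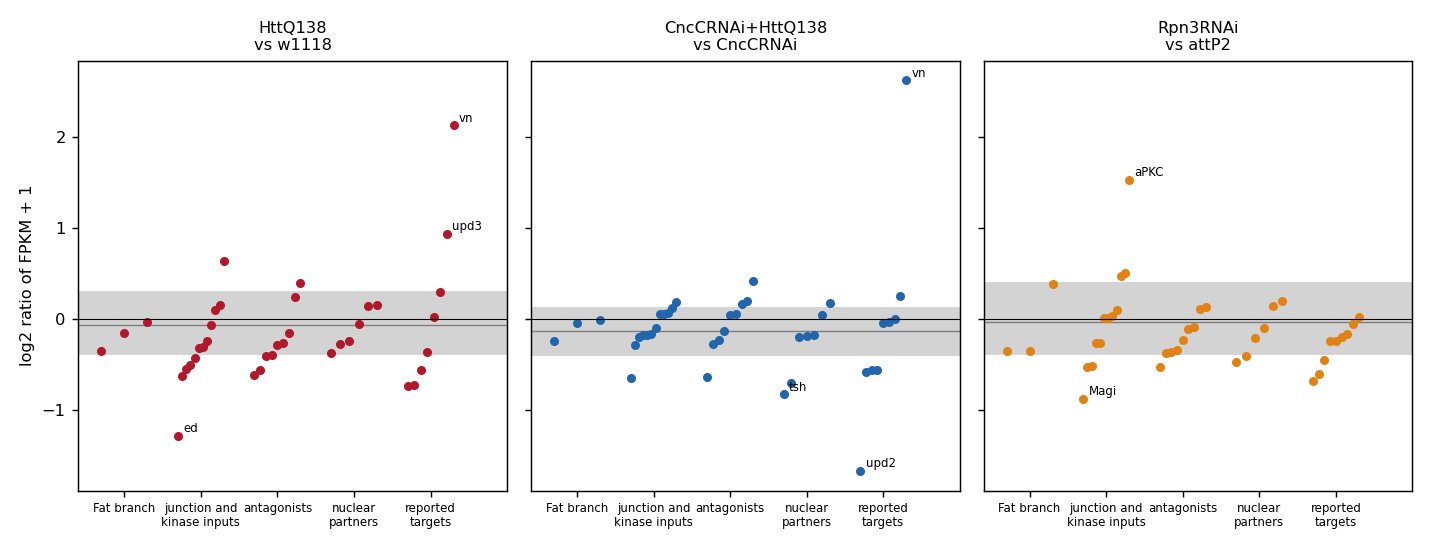
Log2 ratio of FPKM + 1 for the genes of 5 further Hippo lists with a mean of at least 1 FPKM, one panel per comparison, each gene a point and genes past 0.75 named. The grey band is the middle range (quartiles) of all genes tested and the grey line their median; vn lies far above the band in the 2 HttQ138 panels and inside it with Rpn3RNAi.

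The genes with the pattern most like that of yki were found by Pearson's r of log2(FPKM + 1) over the 6 libraries, among 5415 genes with a mean of at least 10 FPKM. They were Atx2 (r = 0.98), CG14711 (0.98), CG30020 (0.98), Mhcl (0.97) and nonA (0.97). The FPKM of Atx2 was 40.3 in w1118 against 21.8 in HttQ138, and like yki it was highest in w1118 and lowest in HttQ138. With 6 libraries that share their scaling, 70 genes reached an r of 0.9, and the values are a description only.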

How the data were processed

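The authors sorted GFP-positive cells (16611 to 62921 per library), sequenced paired-end reads on a MiSeq, mapped them with the Tuxedo suite to release 5.75 of the Drosophila genome as the methods give it, and deposited 1 FPKM per gene and library. Tool versions are not given in the sources used here. The FPKM values were used as deposited. The 10 genes, the further lists and the markers (106 symbols, all matched through annotation 115 of genome release 6) were chosen with earlier results of these data known. Every member is named. From each further list, genes were named where they differed by 1.5-fold with an interval that leaves out 1. At most 2 were named in each direction per comparison. Diap1, sd, bantam, mira, Dl, Sox21a, hdc, NPF, alphaTry, Tsp2A, Ssk, Myo31DF and the genes whose exons overlap a member were named after their values were seen.

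Depth was fitted on 5140 genes with 1 transcript, for which 86.2% of 4348 low values lay within 0.1 of a whole fragment after 155 nucleotides were taken off each length. Estimated fragments gave exact binomial 95% intervals of ratios. The 1.5-fold counts used genes that averaged at least 1 FPKM in the libraries compared, except that all 10 members were counted, and log2 ratios had a pseudocount of 1. The depth and interval code was tested on simulated data. Alternatives were other fold limits, pseudocounts, filters, controls and 2 rescalings (equal sum of FPKM, and the median ratio over 4344 genes of at least 10 FPKM in every library). Python 3.11.15 with numpy 2.4.6, pandas 2.3.3, scipy 1.17.1 and matplotlib 3.10.9 was used. Replicates, and so tests between conditions, were not analysed here.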

Additional observations from a re-analysis of the deposited data

Results flagged for a closer look

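HttQ138 had opposite directions on sav in the 2 backgrounds, lower than its control in w1118 and slightly higher in CncCRNAi, a difference of 0.30 on the log2 scale of FPKM + 1 that was not tested. HttQ138 also had opposite directions on ft, higher than its control in w1118 and lower in CncCRNAi, a difference of -0.22 on the same scale from under 20 fragments per library, which was not tested either.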

How the results depend on the processing

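No paired analysis was possible because no condition has replicate libraries to pair by number, and a fit over the 3 stressed and control pairs, which hold different treatments, was not run. Of 86 alternatives to the counts and medians of members, 21 moved a count by more than 1.5 times or to or from 0, and the other 65 left a count within that limit or a median within the median counting interval of the members. For HttQ138 against w1118, the 1 higher member (ft) became 0 when members needed 5 FPKM, when the interval had to leave out 1, and with CncCRNAi or attP2 as the control. The 2 lower members (yki and kibra) became 1 under either rescaling (kibra), 0 at 2-fold, and 3 at the lowest fold limit tried. With attP2 as the control 1 was lower, but it was wts at a ratio of 0.645, with kibra at 0.715 and yki at 0.826. With CncCRNAi as the control the count stayed 2, but these were kibra at 0.638 and wts at 0.650, with yki at 0.783. On CncCRNAi, the 0 lower members became 2 at the lowest fold limit tried. With Rpn3RNAi, the 0 higher members became 2 under either rescaling and at the lowest fold limit, and 1 with w1118 as the control, and the 2 lower members became 4 at the lowest fold limit and 1 at 2-fold. At 2-fold with 10 FPKM, 1 member (ex) passed in place of 0. The median log2 ratio of members with Rpn3RNAi went from 0.05 to 0.17 and 0.21 under the rescalings, and that between CncCRNAi and w1118 turned from 0.07 to -0.06 under the median ratio.

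Alternatives chosen after the data were seen bear on the members apart from all controls. The 3 below all controls stayed 3 under both rescalings and without either HttQ138 pair, and became 5 without the Rpn3RNAi pair. The 1 above became 0 with an equal sum of FPKM, 2 with the median ratio, 3 without the HttQ138 and w1118 pair and 2 without the Rpn3RNAi pair. The share of all genes was not computed for these alternatives, and sets without a pair separate more easily. Depth limits ft, at 7 to 23 fragments, and no library has a replicate.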
